A study of Mus musculus with 8 samples.

Results

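The G1 regulators examined here were 10 genes, taken by name from the deposited tables: the D-type cyclins Ccnd1, Ccnd2 and Ccnd3, the kinases Cdk4 and Cdk6, the Cip/Kip inhibitors Cdkn1a, Cdkn1b and Cdkn1c, the pocket protein gene Rb1 and the transcription factor gene E2f1. They are 10 of the 55291 gene symbols in the count table, and each had enough counts to be tested. RNA came from ventricular tissue of mouse embryos of the C57BL/6N background at E10.5, with 4 libraries from Pkn2 fl/fl ; XMLC2-Cre+ embryos (cKO) and 4 from Pkn2 fl/fl ; Cre- littermates (control). Both groups were homozygous for the floxed allele, and the groups differed in the Cre transgene as well as in Pkn2. The XMLC2 promoter drives Cre in cardiomyocytes, so other cells of the ventricle kept Pkn2, and the bulk libraries mix all of these cells. In such samples, fewer cells of a type and less RNA per cell cannot be told apart.

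Cells commit to a new round of DNA synthesis late in G1. D-type cyclins, made in response to growth signals, bind CDK4 or CDK6, and these kinases phosphorylate the retinoblastoma protein, which otherwise holds E2F factors on the promoters of S phase genes. The Cip/Kip proteins p21, p27 and p57 (from Cdkn1a, Cdkn1b and Cdkn1c) bind cyclin-CDK complexes and restrain CDK2 in particular. In the embryonic ventricle, D-type cyclins are needed for growth of the myocardial wall, and p57 is known from trabecular myocardium, where cells divide less than in the compact wall.

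The label check came first. Pkn2 was measured at 83.1, 77.6, 79.6 and 84.3 CPM (counts relative to the library size, which was adjusted by the TMM method) in cKO replicates 1 to 4 and at 133, 139, 152 and 153 CPM in control replicates 1 to 4. Every cKO library lay below every control library (log2 fold change −0.83, adjusted p = 7.67e-06 by edgeR). Libraries held 47559845 to 56660938 counts. Cardiomyocyte marker genes were abundant in each library, with a summed level of 40087 to 42010 CPM over 14 genes in cKO and 40675 to 44588 CPM in control. By log2 fold change 4 of the 14 were higher and 10 lower in cKO, and 0 passed the test. Among the other cell types, 12 endothelial and endocardial markers summed to 1642 to 2044 CPM in cKO and 1286 to 1499 CPM in control, and 8 macrophage markers to 12.9 to 40.2 CPM against 7.71 to 13.4 CPM. All 12 and all 8 were higher in cKO in mean level, and 6 and 2 of them passed the test. Hemoglobin and other erythroid markers (8 genes) varied from 1393 to 4892 CPM within cKO and from 1528 to 4733 CPM within control. Of 7 hepatic and yolk sac markers, Alb and Apoc2 were under 8 counts in total, and the list reached 30.2 CPM in control replicate 1 against 2.10 to 6.25 CPM in the other libraries. The part of these cell types in the results on G1 genes was not tested.

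None of the 10 genes passed the test in cKO against control (edgeR's quasi-likelihood test, with calls made at 0.05 after Benjamini-Hochberg adjustment across the 26820 genes tested), where 0.858% of all genes did, and 0.365% did so with a change of 1.5-fold or more. At an unadjusted p under 0.05 there were 5 of the 10 (Ccnd1, Ccnd3, Cdk6, Cdkn1a and E2f1), against 12.8% of all genes tested, and 19.4% of genes with a mean of at least 5 CPM, as all 10 had. DESeq2 and limma-voom, which called 3.23% and 0.626% of all genes, also called 0 of the 10. In CPM, 4 genes were higher and 6 lower in cKO by their log2 fold changes, with a median of −0.03, and the median over all genes with a mean of at least 5 CPM was −0.02. The 4 cKO and 4 control values did not overlap for Cdk6 and E2f1, 2 of the 10, against 6.91% of all genes and 10.7% of those with a mean of at least 5 CPM. The largest fold change was 1.28, of Cdkn1a.

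**Figure D1:**
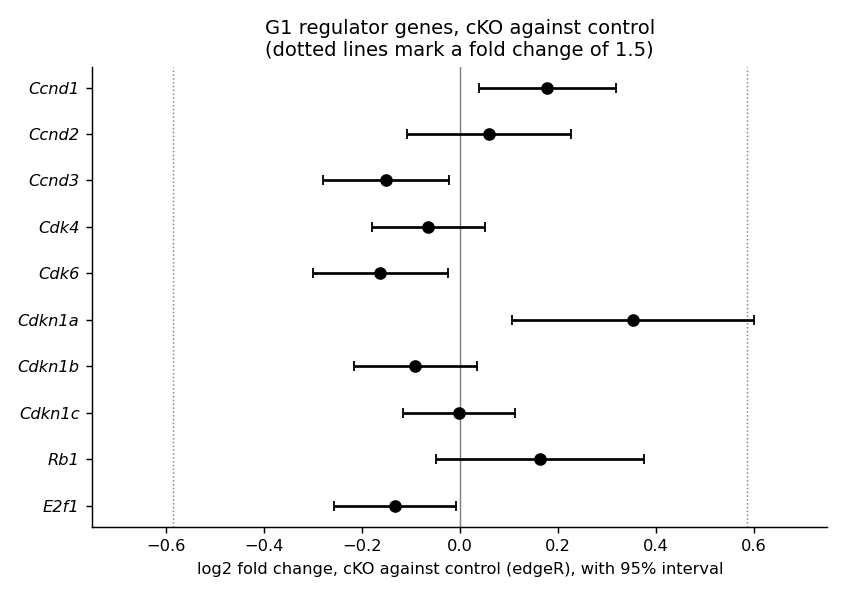
Log2 fold change of each G1 gene, cKO against control, from edgeR (point), with its 95% interval (bar), not adjusted for the number of genes tested; dotted lines mark a fold change of 1.5 in either direction. The intervals of Ccnd1, Ccnd3, Cdk6, Cdkn1a and E2f1 exclude 0, and the interval of Cdkn1a alone reaches past 1.5-fold, to 1.52.

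The levels per length, in TPM (a transcript's share of the library per unit of its length, as computed by the authors), spanned 358-fold from Cdkn1c to Rb1. Cdkn1c was at 1886 ± 87.2 TPM (mean ± SD over the 8 libraries), followed by Cdk4 at 480.1 ± 13.2, Ccnd3 at 362 ± 21.6, Ccnd2 at 284 ± 28.3 and Ccnd1 at 114 ± 11.5 TPM. These 5 genes kept this order in each of the 8 libraries, and the range of each over the libraries did not overlap that of the next. E2f1 (26.6 ± 1.44 TPM), Cdkn1a (22.9 ± 4.45 TPM) and Cdkn1b (22.0 ± 1.82 TPM) followed, with ranges over the 8 libraries that overlapped. E2f1 was above Cdkn1a in 6 of 8 libraries and Cdkn1a above Cdkn1b in 5 of 8. The order depended on the group. In control, E2f1 was at 27.4 to 28.1 TPM and Cdkn1a at 17.2 to 23.3 TPM, without overlap. In each cKO library Cdkn1a was above Cdkn1b, while most control libraries had the reverse. Cdk6 (8.92 ± 0.865 TPM) and Rb1 (5.27 ± 0.619 TPM) were lowest, each clear of its neighbour in the order. Among the D-type cyclins, Ccnd3 and Ccnd2 thus supplied most of the RNA, among the kinases Cdk4, and among the Cip/Kip inhibitors Cdkn1c.

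**Figure D2:**
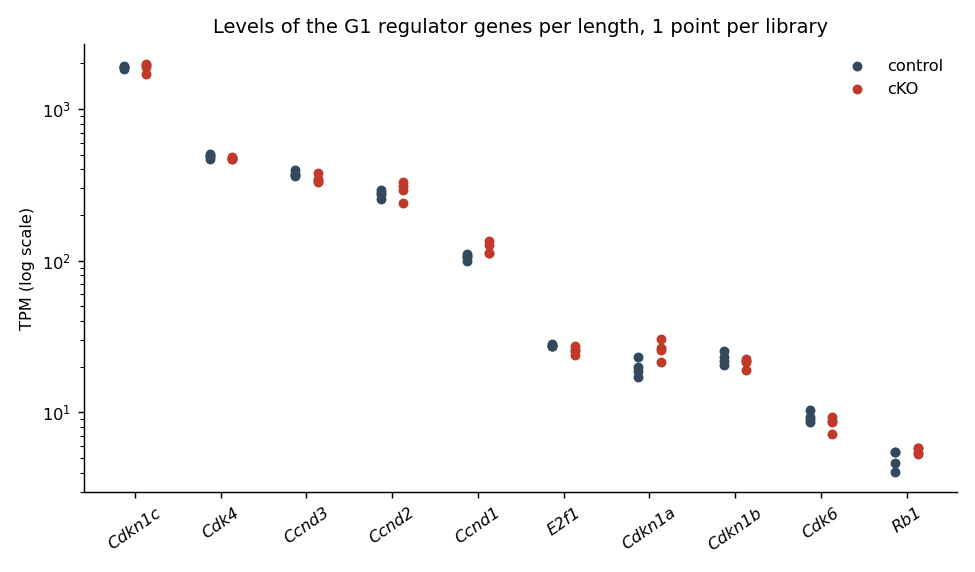
TPM of each G1 gene on a log axis, ordered by the mean over the 8 libraries; each point is 1 library, control at the left and cKO at the right of each pair. Cdkn1c stands highest at 1701 to 1969 TPM, and Rb1 lowest at 4.04 to 5.86 TPM.

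The D-type cyclins differed in sign. Ccnd1 (ENSMUSG00000070348, GRCm38 chromosome 7, 144929931 to 144939869, minus strand) encodes cyclin D1, a direct output of growth factor signalling in many cells. It was at 180.9, 207, 179.6 and 217 CPM in cKO replicates 1 to 4 and at 169, 175, 169 and 181 CPM in control replicates 1 to 4. Replicates 2 and 4 of the cKO group stood well above the controls, replicate 1 was above the highest control by less than 1 CPM, and replicate 3 was below it, so the groups just overlapped. Ccnd1 had a log2 fold change of 0.18 (SE 0.066), which is 1.13-fold with a 95% interval of 1.03 to 1.25 (adjusted p = 0.247 by edgeR). In TPM the groups did not overlap, with 112 to 134 TPM in cKO and 99.8 to 110.4 TPM in control. The share of all genes without overlap in TPM was not computed. Limma on log2(TPM + 1), which called 0.00299% of all genes, did not call Ccnd1 either.

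Ccnd2 (ENSMUSG00000000184, chromosome 6, 127125162 to 127151060, minus strand), which encodes cyclin D2, was at 1006, 1063, 804 and 953 CPM in cKO and at 859, 879, 936 and 999 CPM in control. The highest and the lowest of the 8 values were both in cKO, and the groups overlapped widely. On the log2 scale cKO differed by 0.06 (SE 0.079, adjusted p = 0.836 by edgeR), and without cKO replicate 3, the lowest library, it was 0.14 (adjusted p = 0.316).

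Ccnd3 (ENSMUSG00000034165, chromosome 17, 47505051 to 47599691, plus strand), which encodes cyclin D3, was at 289.9, 299, 311 and 343 CPM in cKO and at 340.3, 334, 360.0 and 345 CPM in control. Replicates 1 to 3 of the cKO group lay below the controls and replicate 4 among them. For Ccnd3 the log2 fold change was −0.15 (SE 0.060), or 0.901-fold with a 95% interval of 0.825 to 0.985 (adjusted p = 0.296 by edgeR).

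As shares of the D-type cyclin RNA, in summed TPM, Ccnd3 made up 49.6% ± 1.45, Ccnd2 36.4% ± 1.33 and Ccnd1 14.0% ± 0.867 in control (mean ± SD, n = 4). In cKO the shares were 45.7% ± 3.12, 38.3% ± 3.495 and 15.9% ± 0.789. The Ccnd1 share was 14.9% to 16.8% in cKO and 12.9% to 14.8% in control, so that the groups were next to each other without overlapping. The summed level did not separate them, at 701 to 802 TPM in cKO and 726 to 775 TPM in control. The ratio of Ccnd1 to Ccnd3 within a library, which does not depend on how libraries are scaled, was 0.577 to 0.692 in counts in cKO and 0.470 to 0.524 in control. This ratio was singled out after its values were seen. It was 1 of 9 ratios without overlap among the 45 that the 10 genes allow. Ccnd1 took part in 5 of the 9, each time higher in cKO relative to its partner (Ccnd3, Cdk4, Cdk6, Cdkn1b or E2f1). These 5 ratios share 1 gene and are not independent of each other. The share of such ratios among pairs of other genes was not computed, so the 9 cannot be set against it.

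**Figure D3:**
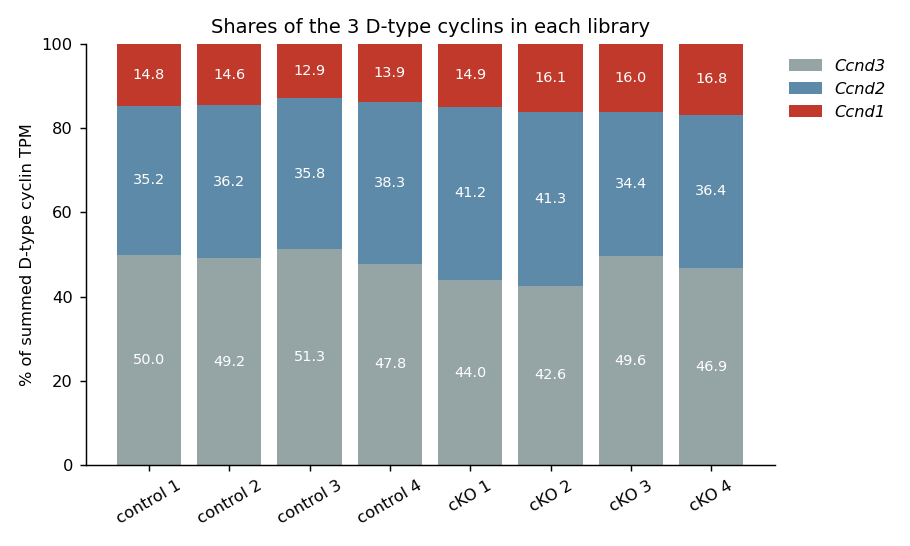
Share of each D-type cyclin in the summed TPM of the 3 genes, in percent, with 1 stacked bar per library and the value printed in each segment. The top segment, Ccnd1, is 12.9% to 14.8% in the 4 control libraries and 14.9% to 16.8% in the 4 cKO libraries.

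The kinases were lower in cKO by their means, by little. Cdk4 (ENSMUSG00000006728, chromosome 10, 127063534 to 127067920, plus strand) encodes the main partner of D-type cyclins by RNA level here. It was at 504, 517, 515 and 503 CPM in cKO and at 559, 511, 512 and 549 CPM in control. The cKO values lay close together and overlapped the 2 lower controls (log2 fold change −0.06, SE 0.054, adjusted p = 0.716 by edgeR). The 95% interval of the fold change, 0.883 to 1.04, was among the narrowest of the 10.

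Cdk6 (ENSMUSG00000040274, chromosome 5, 3343893 to 3531008, plus strand), its paralog, was at 51.6, 54.3, 46.8 and 56.0 CPM in cKO and at 57.2, 56.6, 62.9 and 56.9 CPM in control. Each cKO value was below each control value, by less than 1 CPM between the nearest of them. The lack of overlap fixes the result of an exact two-sided permutation test at p = 0.0286, the smallest for 4 libraries against 4, so that test adds nothing. On the log2 scale cKO was lower by an estimate of −0.16 (SE 0.065), which did not pass across all genes (adjusted p = 0.292 by edgeR). In TPM the groups overlapped, and Cdk6 made up 1.51% to 1.94% of the summed Cdk4 and Cdk6 TPM in cKO and 1.75% to 2.17% in control.

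Of the Cip/Kip inhibitors, Cdkn1a had the largest difference of all 10 genes. It encodes p21, the classical product of p53 activation. Cdkn1a (ENSMUSG00000023067, chromosome 17, 29090979 to 29100727, plus strand) was at 25.1, 20.5, 25.3 and 29.5 CPM in cKO and at 19.0, 15.8, 23.5 and 20.3 CPM in control. Replicates 1, 3 and 4 of the cKO group were above the controls, and replicate 2 was within them. The estimated difference was 0.35 on the log2 scale (SE 0.12), or 1.28-fold with a 95% interval of 1.08 to 1.52 (adjusted p = 0.182 by edgeR). Leaving out single libraries gave 0.27 to 0.45, with no call. With no filter on low counts it passed (adjusted p = 0.0296), where 2.62% of all genes were called. Its highest library, cKO replicate 4, was also the highest in summed endothelial markers (2044 CPM) and in erythroid markers (4892 CPM). Among controls replicate 3 was the highest in Cdkn1a and in erythroid markers (4733 CPM), but the lowest of the 8 libraries in endothelial markers (1286 CPM). Replicates 1 and 3 of the cKO group had like Cdkn1a levels (25.1 and 25.3 CPM) with endothelial sums of 2017 and 1642 CPM. The part of these cells in the Cdkn1a values was not tested.

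Cdkn1a has a start site at each of 2 promoters in the RefSeq table of GRCm38.p6, and the counts per gene do not tell their transcripts apart. A stretch of each is shown because this gene moved most and because p53 and GC box factors are known to act on it. Both are on the plus strand and end 21 bases upstream of their start site. In the first, chr17:29090869-29090958, capitals mark a pair of CATG words with 6 bases between them, the core of a p53 response element. In the second, chr17:29093659-29093748, they mark GC boxes (GGGCGG).
Cdkn1a upstream promoter: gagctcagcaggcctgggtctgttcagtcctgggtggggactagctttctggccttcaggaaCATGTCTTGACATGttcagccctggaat
Cdkn1a downstream promoter: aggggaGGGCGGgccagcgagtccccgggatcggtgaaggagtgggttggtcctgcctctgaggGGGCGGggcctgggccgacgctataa
The table held promoters, 250 bases before to 50 after the start, for 6 of the 10 genes (Ccnd3, Cdk4, Cdk6, Cdkn1a, Cdkn1b and E2f1). The pair of CATG words at this distance, read on both strands, was found in Cdkn1a only among the 6, and in 0.712% of all 32851 promoters. GGGCGG on either strand was found in 5 of the 6, with Cdk6 the exception, and in 35.7% of all promoters. Of the E2F words, searched on both strands, TTTCGCG was in 0.849% of all promoters, TTTGGCG was in 1.56%, and the longer word TTTCCCGC was in 1.07%. They were in 0 of the 6. Of 17 S phase targets of E2F (described below) with a promoter, 6, 4 and 3 held these words in that order. None of these words contains another, and in Cdk4 a pair of GC box matches shared 1 base. A match is a run of letters and not a measured binding site. Words outside the searched 250 bases before to 50 after the start could not be found. For E2f1 the searched window, chr2:154569377-154569676, did not reach 154569892, the 5' end of the gene position given below. The 0 for the E2F words therefore holds for the searched windows only.

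Cdkn1b (ENSMUSG00000003031, chromosome 6, 134920401 to 134925513, plus strand), which encodes p27, an inhibitor that accumulates in resting cells, was at 40.7, 43.5, 42.4 and 43.9 CPM in cKO and at 42.0, 46.5, 46.7 and 46.2 CPM in control. Control replicate 1 fell among the cKO values, and the other controls were above all of them. Cdkn1b had a log2 fold change of −0.09 (SE 0.059, adjusted p = 0.590 by edgeR).

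Cdkn1c (ENSMUSG00000037664, chromosome 7, 143458339 to 143461050, minus strand), an imprinted gene that encodes p57, was at 1086, 1116, 1139.6 and 1057 CPM in cKO and at 1104, 1059, 1132 and 1109 CPM in control. The values of the groups were interleaved, and this was the steadiest of the 10 genes, with an SD of 0.040 over the 8 libraries on the log2 scale. The fold change was 0.999 with a 95% interval of 0.923 to 1.08 (adjusted p = 0.998 by edgeR), and its sign depended on the scaling: the log2 value of −0.0016 became 0.0044 with DESeq2 size factors. Cdkn1c supplied 97.2% to 98.0% of the summed Cip/Kip TPM in cKO and 97.7% to 97.9% in control, so the summed level of the 3 inhibitors followed it. D-type cyclin TPM was 0.361 to 0.432 of Cip/Kip TPM in cKO and 0.373 to 0.410 in control.

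Rb1 (ENSMUSG00000022105, chromosome 14, 73195502 to 73325822, minus strand), which encodes the retinoblastoma protein, was at 14.2, 12.9, 14.6 and 12.7 CPM in cKO and at 10.2, 12.5, 13.9 and 11.9 CPM in control. Replicates 1 and 3 of the cKO group were above the controls, and the other libraries overlapped (log2 fold change 0.16, SE 0.10, adjusted p = 0.553 by edgeR). Without control replicate 1, the lowest library, the log2 fold change was 0.09. The level is uncertain, because Rcbtb2 and Lpar6 lie on the other strand over 12342 and 5400 bases of the Rb1 locus, with 31535 and 5873 counts in total against 5294 for Rb1, and the strand setting of the counts is not given in the sources used here.

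E2f1 (ENSMUSG00000027490, chromosome 2, 154559407 to 154569892, minus strand), which encodes an activator of S phase genes and is itself an E2F target, was at 39.7, 42.4, 40.5 and 37.3 CPM in cKO and at 44.4, 42.7, 43.6 and 44.7 CPM in control. Each cKO value was below each control value, with the nearest pair 42.4 and 42.7 CPM. As for Cdk6, this alone fixes the exact permutation test at p = 0.0286. In TPM the groups overlapped, with cKO replicate 2 at 27.5 TPM and control replicate 4 at 27.4 TPM. The controls varied little, with an SD of 0.890 CPM against 2.12 CPM in cKO. E2f1 had a log2 fold change of −0.13 (SE 0.059), or 0.912-fold with a 95% interval of 0.837 to 0.994 (adjusted p = 0.354 by edgeR).

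**Figure D4:**
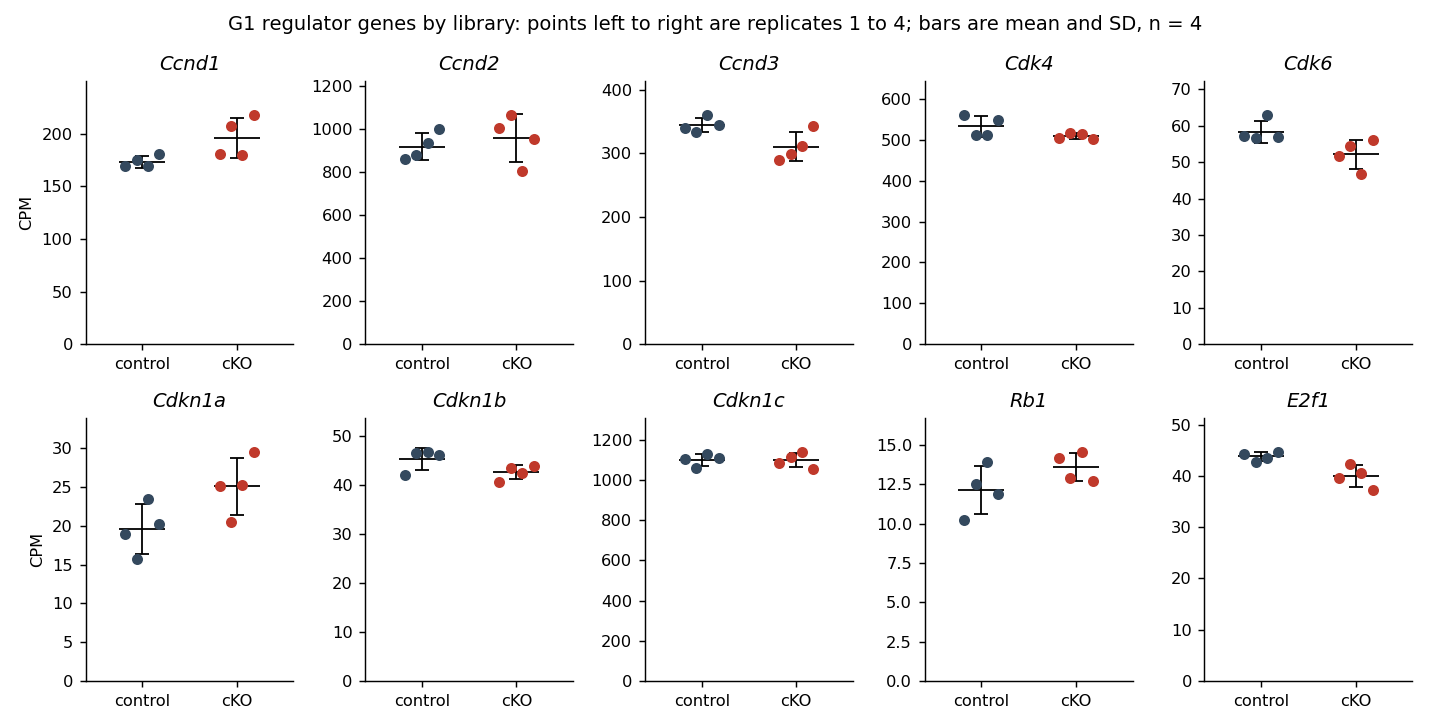
CPM of each G1 gene in every library on axes that start at 0; points from left to right are replicates 1 to 4 of the control (dark) and cKO (red) groups, and the bars give the mean and SD (n = 4). Cdk6 and E2f1 show no overlap between the groups in CPM, at 46.8 to 56.0 against 56.6 to 62.9 CPM and at 37.3 to 42.4 against 42.7 to 44.7 CPM.

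Around these genes, 40 further genes of the G1 to S network were examined in 8 lists. Of the 40, 0 passed the test by edgeR, where 0.858% of all genes did, and 3 had an unadjusted p under 0.05, against 12.8% of all genes. DESeq2 called 2 of the 40 and 3.23% of all genes. By log2 fold change, 12 were higher and 28 lower in cKO, with a median of −0.05, and of all genes with a mean of at least 5 CPM 42.1% were higher, with a median of −0.02. In the list of cyclins E and A with Cdk2 and its activator Cdc25a, which act after CDK4 and CDK6, 1 gene was higher and 5 were lower. Ccna2, the cyclin A of S phase and G2, was at 159, 188, 183 and 146 CPM in cKO and at 198, 195, 203 and 217 CPM in control. The groups did not overlap, with cKO replicates 4 and 1 lowest (log2 fold change −0.27, SE 0.075, adjusted p = 0.109 by edgeR). DESeq2 called it (adjusted p = 0.0300), as did edgeR without cKO replicate 3 (adjusted p = 0.0457), where 2.82% of all genes were called. Ccne2 and Cdc25a had log2 fold changes of −0.15 and −0.03 (adjusted p = 0.423 and 0.887).

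In the INK4 list, whose proteins block CDK4 and CDK6 directly, 2 genes were higher and 2 lower, and those above 1 CPM were Cdkn2d (log2 fold change 0.08, adjusted p = 0.673 by edgeR) and Cdkn2c (−0.09, adjusted p = 0.845). Both other pocket protein genes were lower in cKO, Rbl1 with −0.12 and Rbl2 with −0.14 (adjusted p = 0.512 and 0.627). Of the 9 other E2F and DP genes, 4 were higher and 5 lower. The lowest adjusted p was that of E2f8, a repressor of E2F targets (log2 fold change −0.13, adjusted p = 0.491), followed by E2f2 (0.13, adjusted p = 0.681) and E2f7 (−0.06, adjusted p = 0.802).

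In the MuvB core, which represses cell cycle genes together with pocket proteins in resting cells, 1 gene was higher and 4 were lower, with Rbbp4 at −0.11, Lin54 at −0.07 and Lin52 at 0.06 on the log2 scale (adjusted p from 0.441 to 0.889 by edgeR). Among 8 genes that degrade cyclins and p27, 2 were higher and 6 lower, with Cks1b at −0.14, Cul1 at −0.08 and Gsk3b at 0.06 (adjusted p from 0.461 to 0.760). The CDK-activating kinase was lower in its 3 subunits, Ccnh at −0.12, Mnat1 at −0.11 and Cdk7 at −0.05 (adjusted p from 0.462 to 0.820). The sign of Cdk7 changed in the fits on TPM. Groups did not overlap in CPM for 2 of the 40 genes, Mnat1 and Ccna2, against 6.91% of all genes and 10.7% of those with a mean of at least 5 CPM, and in TPM Mnat1 overlapped.

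The list of Myc inputs held the largest differences of the network. Myc, a growth-driven activator of cyclin D and E2F genes, was at 34.7, 20.6, 15.9 and 44.6 CPM in cKO and at 16.7, 14.1, 18.02 and 17.1 CPM in control. Replicates 1, 2 and 4 of the cKO group were above the controls, by 2-fold or more in replicates 1 and 4 relative to the control mean of 16.5 CPM, while replicate 3 was among the controls. Myc had a log2 fold change of 0.81 (SE 0.22, adjusted p = 0.104 by edgeR). It rested on single libraries: it was 0.53 without cKO replicate 4 (adjusted p = 0.224) and 1.02 without cKO replicate 3, where it passed (adjusted p = 0.00816). The same cKO replicates 1 and 4 had the highest summed endothelial markers (2017 and 2044 CPM, against 1654 and 1642 CPM in cKO replicates 2 and 3) and macrophage markers (40.2 and 24.5 CPM against 16.5 and 12.9 CPM), and the part of these cells in the Myc values was not tested.

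Mycn, the family member known from compact myocardium, was at 51.5, 61.9, 56.8 and 72.4 CPM in cKO and at 74.1, 71.4, 73.8 and 74.2 CPM in control. Replicates 1 to 3 of the cKO group were below the controls, and replicate 4 was just within them (log2 fold change −0.27, SE 0.081, adjusted p = 0.130 by edgeR). Without cKO replicate 4 it passed, with a log2 fold change of −0.36 (adjusted p = 0.0112), where 0.878% of all genes were called. Max, the shared partner of both proteins, had a log2 fold change of 0.0043 (adjusted p = 0.993), with a sign that changed when single libraries were left out.

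Targets of E2F in S phase were followed in 20 genes of replication licensing and nucleotide synthesis. Of these, 2 were higher and 18 lower in cKO (median −0.06 on the log2 scale), beside 42.1% higher among all genes with a mean of at least 5 CPM. By edgeR and limma-voom 0 passed, and by DESeq2 1 did, where 3.23% of all genes were called. In edgeR 3 of the 20 had an unadjusted p under 0.05, against 12.8% of all genes and 19.4% of those with a mean of at least 5 CPM. The groups did not overlap in CPM for 2 of the 20, near the 10.7% of genes with a mean of at least 5 CPM. Ung, a uracil-DNA glycosylase, was at 36.8, 43.2, 42.8 and 38.8 CPM in cKO and at 51.0, 48.2, 47.2 and 47.2 CPM in control, without overlap (log2 fold change −0.26, adjusted p = 0.0731 by edgeR). It was called by DESeq2 (adjusted p = 0.0128) and by edgeR without cKO replicate 3 (adjusted p = 0.0361). The licensing factor Cdt1 was at 54.5 to 65.9 CPM against 68.1 to 77.3 CPM, also without overlap (log2 fold change −0.21, adjusted p = 0.154). Rrm2, a ribonucleotide reductase subunit, had a log2 fold change of −0.25 (adjusted p = 0.259), with 161 CPM in cKO replicate 4 and 209.9 to 248 CPM in the other cKO libraries, and without that replicate the log2 fold change was −0.14. The 20 genes summed to 2488 CPM in cKO replicate 4, 2771 to 2969 CPM in the other cKO libraries and 2845 to 3017 CPM in control. The 6 cycling markers were Mki67, Top2a, Ccnb1, Cdk1, Bub1 and Aurkb. They summed to 1576 CPM in cKO replicate 4, which was again the lowest library. The other cKO libraries were at 1705 to 1886 CPM and the controls at 1734 to 1860 CPM, within that range. By edgeR 2 of the 6 markers were higher and 4 lower in cKO, and 0 passed.

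Targets of p53 other than Cdkn1a were followed in 16 genes, of which 7 were higher and 9 lower in cKO (median −0.02 on the log2 scale). By edgeR and limma-voom 0 passed, and by DESeq2 2 did, where 3.23% of all genes were called. In edgeR 3 of the 16 had an unadjusted p under 0.05, close to the share of 19.4% among genes with a mean of at least 5 CPM. The groups did not overlap in CPM for 1 of the 16, against 6.91% of all genes and 10.7% of those with a mean of at least 5 CPM. Eda2r, a receptor of the tumor necrosis factor family, was at 10.8, 9.27, 9.83 and 10.01 CPM in cKO and at 7.78, 6.28, 8.27 and 7.91 CPM in control, without overlap (log2 fold change 0.40, SE 0.11, adjusted p = 0.104 by edgeR, and 0.0110 by DESeq2). Btg2, an antiproliferative gene, was at 30.9 to 41.5 CPM against 28.6 to 31.5 CPM (log2 fold change 0.31, adjusted p = 0.0946), and Plk2, a Polo-like kinase, at 86.1 to 137 CPM against 83.0 to 93.3 CPM (log2 fold change 0.35, adjusted p = 0.199). Without cKO replicate 2, the lowest cKO library for both, edgeR called Btg2 (adjusted p = 0.0187) and Plk2 (adjusted p = 0.0459), with 1.07% of all genes called. None of the 13 of these 16 genes with a promoter in the RefSeq table held that pair of CATG words. Only 250 bases before to 50 after the start were searched, so sites elsewhere in these genes could not be found.

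**Figure D5:**
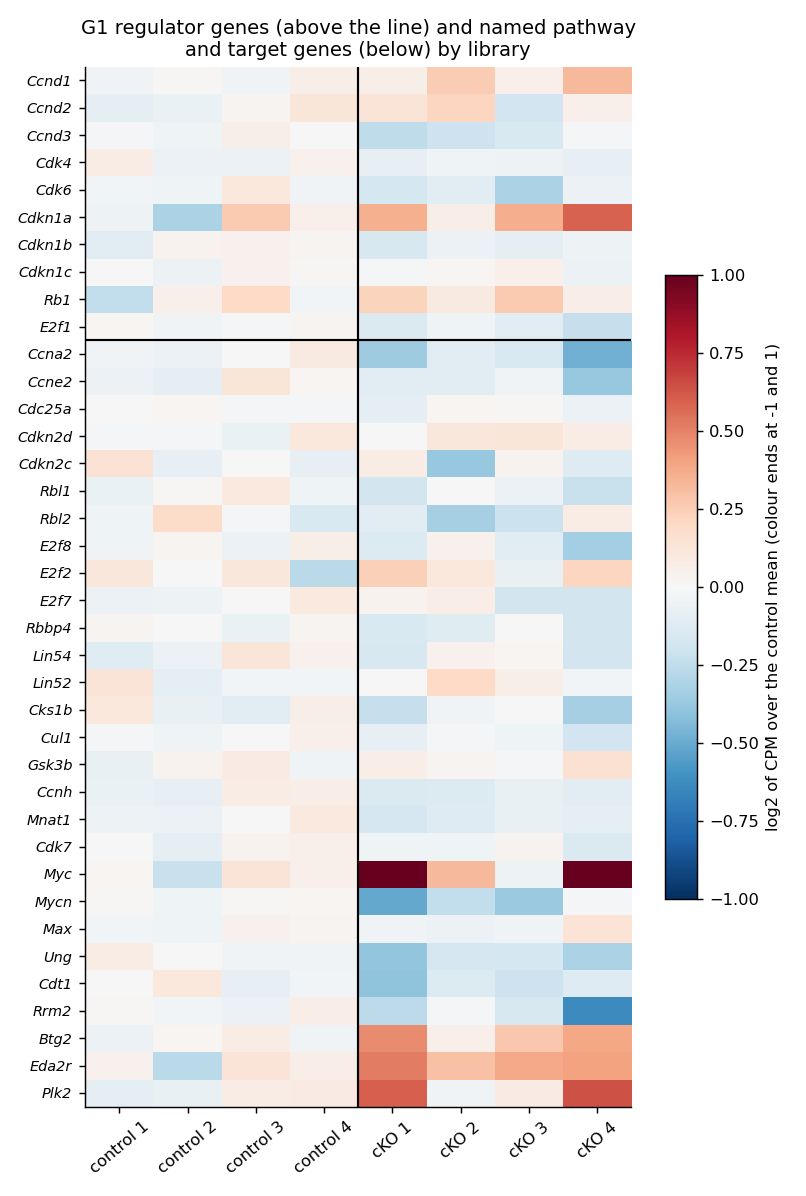
Level of the 10 G1 genes (above the line) and 28 named genes of the lists (below) in each library, as the log2 of CPM over the control mean, blue for lower and red for higher; the colour scale ends at −1 and 1. The deepest red is Myc in cKO replicates 1 and 4 (34.7 and 44.6 CPM), and the deepest blue Rrm2 in cKO replicate 4 (161 CPM).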

How the data were processed

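The deposited files are a table of raw counts by gene symbol and a table of TPM computed by the authors with Ensembl identifiers, 1 column per library and no pooling. Per the labels and methods, reads (nf-core/rnaseq, Trim Galore 0.6.7, HISAT2 2.2.1, StringTie 2.2.1 and featureCounts are named) were aligned to GRCm39, while the positions in the TPM table are those of GRCm38 and are given as such. The strand setting is not given in the sources used here. No column was left out. Counts were analysed with edgeR 4.0.16 (TMM, quasi-likelihood F test on condition, Benjamini-Hochberg adjustment) on genes whose counts summed to 8 or more over the libraries, in R 4.3.3, on the whole table. Depth was 47559845 to 56660938 counts per library. Counting error was not compared with the spread between libraries gene by gene. It need not be small for genes that varied little, such as E2f1 in control (2058 to 2467 counts, SD 0.890 CPM). SE is the log2 fold change over the square root of F, and intervals use its degrees of freedom. Log2 CPM used a prior count of 2.

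Members and lists were chosen with earlier results of these data known. Named were the 10 genes, Pkn2, and, of each other list, the genes past the threshold or otherwise the 3 with the lowest adjusted p and a mean of at least 1 CPM. Genes most like a member had the smallest root mean square difference in centred log2 CPM. Alternatives were DESeq2 1.42.0 (Wald test), limma-voom (limma 3.58.1), DESeq2 size factors, library totals, upper-quartile factors, filterByExpr, no filter, limma on log2(TPM + 1) and log2(TPM + 0.1), a filter on mean TPM, the replicate number as a block, no hemoglobin genes, log2 Xist CPM as a covariate, and each library left out. Only the main edgeR fit was tested on simulated data, with planted changes of 1.5-fold or more, larger than those of the 10 genes. Replicate numbers were not taken as pairs: deviations of same-numbered libraries from their group means correlated at −0.25, −0.04, 0.06 and −0.18 over 11244 genes. Replicate pairs within a group differed by 12.0 to 39.1 in chi-square per degree of freedom, where copies of 1 library would give about 1. Promoters were from RefSeq (GRCm38.p6).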

Additional observations from a re-analysis of the deposited data

Results flagged for a closer look

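In 4 of 76 groups of 4 libraries (38 named genes in each of 2 groups), 1 library stood apart by Dixon's test at its 95% level, and chance gives about 1 group in 20. Control replicate 3 was high for Cdk6 (62.9 CPM, with the other controls at 56.6 to 57.2 CPM, gap over range 0.909). Control replicate 1 was low for Cdkn1b (42.0 CPM, with the others at 46.2 to 46.7 CPM, 0.894). Control replicate 2 was low for Mycn (71.4 CPM, with the others at 73.8 to 74.2 CPM, 0.853). Replicate 4 of the cKO group was high for Max (48.02 CPM, 0.874).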

How the results depend on the processing

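Of the 10 genes, 0 passed the test in edgeR and in 20 of the 21 alternatives, and with no filter 1 did (Cdkn1a). Of the 40 network genes 0 passed in edgeR, 2 did with DESeq2 (Ccna2 and Mycn), 3 with no filter (Ccna2, Mycn and Myc), 1 with the replicate number as a block (Myc, adjusted p = 0.0403, where 1.42% of all genes were called, 380 against 230), and 0 to 2 with 1 library left out, where the 10 genes gave 0. The replicate block changed no other call reported for these 50 genes. Of the 10 genes, 0 passed with a change of 1.5-fold or more in any fit, while Myc did in the fits that called it. Apart from Cdkn1c, the 10 genes kept their sign in the 21 alternatives. The log2 fold change of Cdkn1c turned positive with DESeq2 (0.0044), DESeq2 size factors (0.0044), library totals (0.0089), upper-quartile factors (0.017), filterByExpr (0.0087) and no filter (0.0055), and ran from −0.017 to 0.025 with 1 library left out. Cdc25a turned to 0.00073 on log2(TPM + 1), with and without the filter on mean TPM, and 0.00076 on log2(TPM + 0.1), and Cdk7 to 0.027 on each. With 1 library left out, Cdkn2c ran from −0.14 to 0.0046 and Max from −0.035 to 0.034. The cause was not tested. Xist was low in each of the 8 libraries, at 0.0801 to 2.24 CPM. The fit with log2 Xist CPM as a covariate therefore cannot show how the results depend on embryo sex. Rb1, the lowest of the 10 genes, had 553 to 788 counts per library.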

Other observations

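The genes whose pattern over the 8 libraries was most like that of the 3 G1 genes with the largest spread are given as a description. Nearest to Cdkn1a were Ptp4a3 and Bend5, with root mean square differences of 0.107 and 0.124 in centred log2 CPM. Nearest to Rb1 were Uty (0.0332) and Dop1a (0.0551), and nearest to Ccnd2 were 5430416N02Rik (0.0443) and Zbtb21 (0.0499). Each was the closest of 11243 genes with a mean of at least 5 CPM, so small distances are to be found for any gene. The log2 fold changes of Ptp4a3 and Bend5 were 0.25 and 0.28 (adjusted p = 0.190 and 0.329 by edgeR).

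After the values were seen, 1 library was singled out. Replicate 4 of the cKO group was the lowest of the 8 libraries for E2f1 (37.3 CPM), Ccna2 (146 CPM) and Rrm2 (161 CPM), and the highest for Ccnd1 (217 CPM), Cdkn1a (29.5 CPM) and Myc (44.6 CPM). The part of that library in the fold changes can be read from the values without it. The log2 fold changes were then −0.09 for E2f1, −0.20 for Ccna2 and −0.14 for Rrm2. For Ccnd1, Cdkn1a and Myc they were 0.13, 0.27 and 0.53.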
